A study of Mus musculus with 18 samples.

Results

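Sterol and fatty acid synthesis genes were followed across 6 groups of mouse embryonic fibroblast (MEF) cells profiled on expression arrays. The set held 32 listed symbols, of which 31 had a probe set (the group of probes that reads 1 transcript) annotated to exactly 1 symbol, out of 19938 symbols measured in this way. Acat2 had no such probe set and was dropped, and the brightest probe set stood for each of the other symbols. The 31 genes were 16 enzymes of cholesterol synthesis, 4 sterol regulators and transport genes and 11 genes of fatty acid synthesis, elongation and desaturation. The cells were immortalized MEF cells of ICR background, grown in DMEM with 10% fetal bovine serum. All were exposed for 2 h to adenovirus and then kept in normal medium for 70 h, where the virus carried a scrambled sequence in SCR cells, a hairpin that targets HSF1 in HSF1-KD cells and a hairpin that targets SSBP1 in SSBP1-KD cells. Each kind of cell either stayed at 37 °C (Cont) or spent 1 h in a water bath at 42 °C (HS). Every one of the 6 groups had 3 arrays, 18 in all. The study used these cells to ask how HSF1, the main transcription factor of the heat-shock response, and SSBP1, a mitochondrial single-strand DNA-binding protein, shape gene expression in unstressed and heat-shocked cells. The model was 1 stock of immortalized cells, every group had been infected with virus, and the groups hold a single knockdown per target, so an effect of the target and an effect of the hairpin used cannot be told apart.

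Cholesterol is made from acetyl-CoA. HMG-CoA synthase (Hmgcs1) starts the mevalonate steps, Mvk, Pmvk, Mvd and Idi1 turn mevalonate into isoprenoid units, Fdps and Fdft1 join these into squalene, and Sqle and Lss close the ring to lanosterol, from which Cyp51, Msmo1, Nsdhl, Hsd17b7, Ebp, Sc5d and Dhcr7 shape cholesterol. Fatty acid synthesis draws on the same acetyl-CoA, through Acly and Acss2, on NADPH from malic enzyme (Me1), and on acetyl-CoA carboxylase (Acaca) and fatty acid synthase (Fasn). Elovl5 and Elovl6 then lengthen the chains, and Scd1, Scd2, Fads1 and Fads2 put double bonds into them. Many of these genes are known targets of the sterol regulatory element-binding proteins, encoded by Srebf1 and Srebf2. These factors are held in the endoplasmic reticulum by INSIG proteins when sterols are plentiful and are cut free when sterols run low. Fibroblasts, like most dividing cells, both make cholesterol and take it up.

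Array medians lay between 7.88 and 7.94 on the log2 scale, and arrays of 1 group correlated at 0.985 or higher over all probe sets. The first replicate of SSBP1-KD Cont stood apart, with a mean absolute deviation from its group mean of 0.152 on the log2 scale against 0.0918 and 0.11 in the other SSBP1-KD Cont arrays. Hsf1 was not read by a probe set with 1 symbol, so its knockdown was not checked here. Ssbp1 was lower in SSBP1-KD than in SCR cells by 0.22 on the log2 scale at 37 °C, which missed the threshold (log2 difference -0.22 ± 0.08 SE, adjusted p = 0.0555), and passed it after heat shock (log2 difference -0.41 ± 0.08 SE, adjusted p = 0.00155). Ssbp1 also fell with heat in SCR cells, by 0.36 (adjusted p = 0.00614), which is more than its difference at 37 °C, so the mean in SCR HS lay below that in SSBP1-KD Cont. The heat-induced gene Hspa1a, which encodes HSP70, rose with heat by 4.31 in SCR, 0.55 in HSF1-KD and 3.42 in SSBP1-KD cells (log2 differences). Mean log2 signals over all arrays ran from 7.90 (Thy1) to 13.9 (Fn1) over the 9 measured fibroblast markers, from 5.84 (Adipoq) to 7.97 (Pparg) over 7 adipocyte markers, from 6.25 (Ptprc) to 9.79 (Cd68) over 6 macrophage markers, from 7.35 (Epcam) to 8.93 (Krt8) over 6 epithelial markers, from 5.31 (Emcn) to 7.95 (Kdr) over 6 endothelial markers and from 5.17 (Cyp7a1) to 7.86 (Apoa1) over 5 hepatocyte markers. Each probe set has its own scale and background, so these ranges neither show nor exclude other cell types. Some markers of fibroblasts, macrophages, endothelial cells and epithelial cells moved with the knockdowns. Against SCR Cont, 6 of the 9 fibroblast markers passed the test as lower in HSF1-KD Cont. In SSBP1-KD Cont 7 passed as lower and 1 as higher. The shares of all symbols were 10.1% lower in HSF1-KD Cont, and 16.5% lower and 14.6% higher in SSBP1-KD Cont. The log2 of the summed signal of these 9 markers spanned 15.77 to 15.81 in SCR Cont. It spanned 15.63 to 15.67 with HSF1 knocked down and 15.47 to 15.53 with SSBP1 knocked down. Of the 6 macrophage markers, 2 were higher and none lower in each knockdown in Cont (10.9% of all symbols were higher in HSF1-KD). Cd68 rose by 0.35 in HSF1-KD and by 0.43 in SSBP1-KD, and the summed signal of the list spanned 10.12 to 10.24 in SCR Cont, 10.39 to 10.52 with HSF1 knocked down and 10.43 to 10.52 with SSBP1 knocked down. Of the 6 endothelial markers, 1 was higher in HSF1-KD Cont and 2 in SSBP1-KD Cont, with none lower. Their summed signal spanned 9.595 to 9.65 in SCR Cont. It spanned 9.793 to 9.872 with HSF1 knocked down and 9.691 to 9.884 with SSBP1 knocked down. Among the 6 epithelial markers, 1 was higher and 1 lower in HSF1-KD Cont, and 2 were lower in SSBP1-KD Cont. The adipocyte and hepatocyte lists had at most 1 marker called in each of these comparisons. The part of these markers in the lipid gene results was not tested, and in whole-culture RNA fewer cells of a type and less RNA per cell cannot be told apart.

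Promoter sequences were at hand for 24 of the 31 genes, as 30 windows of RefSeq (GRCm38.p6) that ran from 250 bases before to 50 bases after an annotated start. Classical promoters of sterol genes pair a sterol regulatory element with sites for NF-Y, which reads CCAAT, or for Sp1, which reads GC boxes, so these letters were searched on both strands. The CCAAT letters were in 22 of the 30 windows (73.3%) and in 37.4% of all 32851 windows, or 38.2% of the 21262 windows of protein-coding genes. These letters were in 13 of 16 windows of the cholesterol enzymes (81.25%), 4 of 5 of the regulators (80.0%) and 5 of 9 of the fatty acid genes (55.56%). Counted by gene, where 1 matching window is enough, all 13 cholesterol enzymes with a window and all 3 such regulators held CCAAT. So did 5 of 8 fatty acid genes, and these counts by gene have no background share beside them. The GC box GGGCGG was in 21 of 30 windows (70.0%), against 35.7% of all and 46.2% of coding windows. By list it was in 13 of 16 windows of the cholesterol enzymes, 4 of 5 of the regulators and 4 of 9 of the fatty acid genes (44.4%). The E-box CACGTG, which the sterol regulatory factors can also read, was in 5 windows (16.7%, against 7.15% of all). The sterol regulatory element TCACNCCAC was in 1 window, that of Hmgcs1 (3.33%, against 1.24% of all), and GAANNTTC, a short form of the heat shock element, in 2 (6.67%, against 7.86% of all). No motif searched contains another, and a match of such short letters is a description of the sequence, not a site. The stretches below lie just before annotated starts and are shown because they carry the sterol regulatory element of Hmgcs1 and the CCAAT letters of genes that the results turn on. Capitals mark 1 motif in each stretch, which reads ATTGG where CCAAT lies on the other strand. Other searched letters stay in lower case, namely a GC box in the Idi1 stretch and GAANNTTC in the Elovl5 stretch. They come from chr13:119690188-119690247 (Hmgcs1, plus strand), chr5:4104698-4104757 (Cyp51, minus strand), chr13:8885533-8885592 (Idi1, plus strand), chr15:82147106-82147165 (Srebf2, plus strand) and chr9:77917266-77917325 (Elovl5, plus strand).
Hmgcs1: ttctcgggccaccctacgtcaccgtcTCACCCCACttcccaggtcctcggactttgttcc
Cyp51: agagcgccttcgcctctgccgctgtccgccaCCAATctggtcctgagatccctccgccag
Idi1: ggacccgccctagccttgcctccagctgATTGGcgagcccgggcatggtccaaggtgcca
Srebf2: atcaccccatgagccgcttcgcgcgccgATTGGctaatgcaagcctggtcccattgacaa
Elovl5: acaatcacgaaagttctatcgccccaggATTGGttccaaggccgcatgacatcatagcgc

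In unheated cells, the 2 knockdowns moved most of these genes in opposite directions. In HSF1-KD Cont, 21 of the 31 genes were higher and 1 was lower than in SCR Cont at an adjusted p under 0.05, against 10.9% of all symbols higher and 10.1% lower. In SSBP1-KD Cont, 25 were lower and 2 were higher than in SCR Cont, against 16.5% of all symbols lower and 14.6% higher. The median difference over the 31 genes was 0.22 on the log2 scale in HSF1-KD and -0.40 in SSBP1-KD, where the median over all symbols was 0.03 and 0.05. The 3 HSF1-KD arrays all lay above the 3 SCR arrays for 23 of the 31 genes (22.8% of all symbols), and the 3 SSBP1-KD arrays all lay below them for 26 of the 31 (21.3% of all symbols). Both comparisons share the SCR Cont arrays. The p-values come from limma, adjusted over all 35557 probe sets. Nothing in the labels says whether the 3 arrays of a group came from separate cultures, so these p-values reflect array-to-array spread that could be technical in origin.

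**Figure D1:**
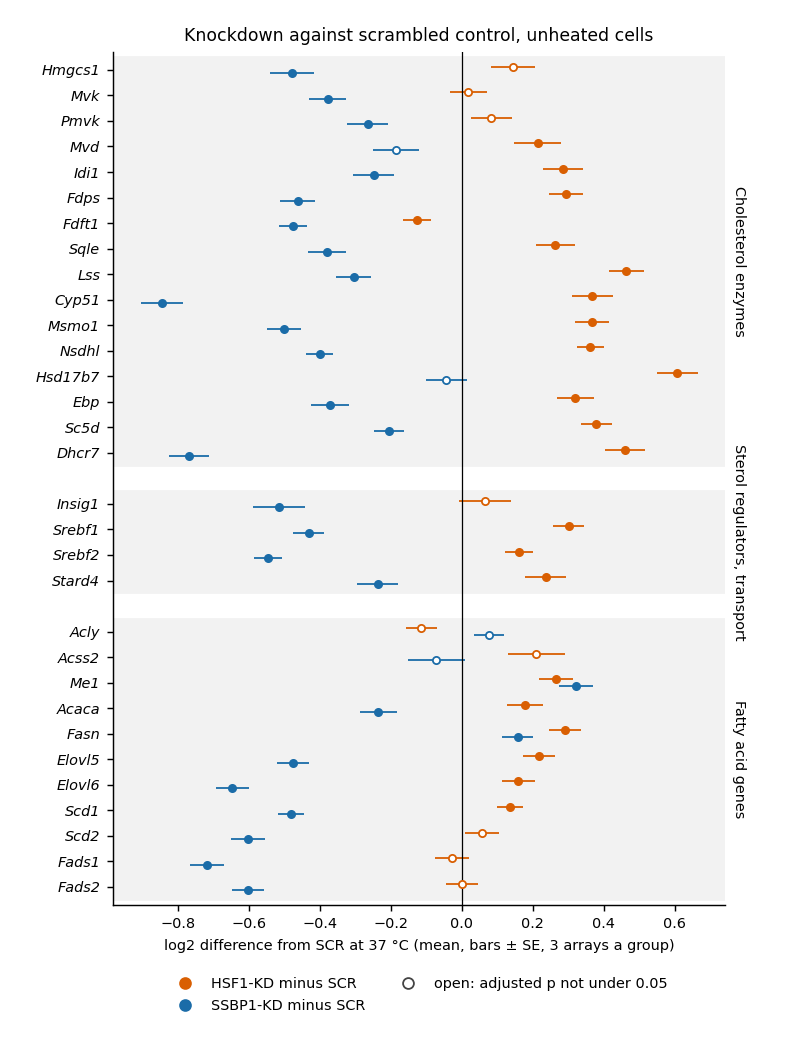
Log2 difference from SCR Cont of each of the 31 genes in HSF1-KD Cont (orange) and SSBP1-KD Cont (blue), with bars of 1 SE and 3 arrays a group. Filled points passed an adjusted p of 0.05. The cholesterol enzymes lie right of 0 in HSF1-KD (Fdft1 lies left) and left of 0 in SSBP1-KD, and the lower fatty acid genes, from Elovl5 to Fads2, lie far left in SSBP1-KD.

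Among the cholesterol enzymes, 12 of 16 were higher and 1 was lower in HSF1-KD Cont, and 14 of 16 were lower in SSBP1-KD Cont. Cyp51, the lanosterol demethylase, had signals of 11.64, 11.55 and 11.54 in SCR Cont, 11.94, 11.96 and 11.93 in HSF1-KD Cont and 10.65, 10.71 and 10.83 in SSBP1-KD Cont. The 3 groups did not overlap. Cyp51 rose by 0.37 ± 0.06 (SE) on the log2 scale in HSF1-KD (adjusted p = 0.000521) and fell by 0.85 ± 0.06 in SSBP1-KD, which is 1.80-fold lower (adjusted p = 2.65e-07). Dhcr7, which encodes the enzyme of the last step to cholesterol, read 10.31, 10.30 and 10.37 in SCR Cont, 10.80, 10.73 and 10.84 in HSF1-KD Cont and 9.61, 9.50 and 9.55 in SSBP1-KD Cont. These groups were again apart, with every HSF1-KD array on top and every SSBP1-KD array at the bottom. Dhcr7 rose by 0.46 ± 0.06 in HSF1-KD (adjusted p = 5.93e-05) and fell by 0.77 ± 0.06 in SSBP1-KD (1.71-fold lower, adjusted p = 3.70e-07).

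The other sterol ring enzymes ran the same way in HSF1-KD Cont. Lss, which makes lanosterol from squalene epoxide, read 10.51, 10.57 and 10.46 in SCR Cont, 11.00, 10.97 and 10.97 in HSF1-KD Cont and 10.18, 10.24 and 10.22 in SSBP1-KD Cont. It rose by 0.46 ± 0.05 in HSF1-KD (adjusted p = 1.56e-05) and fell by 0.30 ± 0.05 in SSBP1-KD (adjusted p = 0.000324), with no overlap between the 3 groups. Log2 differences from SCR Cont in HSF1-KD were 0.26 for Sqle, the squalene epoxidase, 0.37 for Msmo1, 0.36 for Nsdhl, 0.32 for Ebp and 0.38 for Sc5d, all past the threshold. In SSBP1-KD they were -0.38 for Sqle, -0.50 for Msmo1, -0.40 for Nsdhl, -0.37 for Ebp and -0.20 for Sc5d, and these passed as well.

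Hsd17b7, a sterol ketone reductase, moved with 1 knockdown. It read 10.12, 10.03 and 9.95 in SCR Cont, 10.59, 10.64 and 10.69 in HSF1-KD Cont and 9.98, 10.03 and 9.96 in SSBP1-KD Cont. The HSF1-KD arrays stood above the rest, whereas the SSBP1-KD arrays lay within the SCR range. Hsd17b7 rose by 0.61 ± 0.06 in HSF1-KD (1.52-fold, adjusted p = 6.05e-06), the largest rise among the 31 genes in that comparison. Its difference in SSBP1-KD was -0.04, with a 95% interval of -0.17 to 0.08 (adjusted p = 0.627).

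Of the early mevalonate steps, Mvd and Idi1 rose in HSF1-KD Cont, whereas Hmgcs1, Mvk and Pmvk did not pass. Hmgcs1 read 11.14, 11.09 and 11.13 in SCR Cont, 11.33, 11.19 and 11.27 in HSF1-KD Cont and 10.64, 10.66 and 10.62 in SSBP1-KD Cont. Its SSBP1-KD arrays sat well under both other groups, a fall of 0.48 ± 0.06 (adjusted p = 5.55e-05), while the HSF1-KD difference of 0.14 missed the threshold (95% interval 0.01 to 0.28, adjusted p = 0.141). The kinases Mvk and Pmvk had differences of 0.02 and 0.08 in HSF1-KD, neither past the threshold, and fell by 0.38 and 0.27 in SSBP1-KD. Mvd, the decarboxylase, rose by 0.21 in HSF1-KD and had a difference of -0.18 in SSBP1-KD that did not pass (adjusted p = 0.0531). Idi1, the isomerase, rose by 0.28 and fell by 0.25, and Fdps, which makes farnesyl diphosphate, rose by 0.29 and fell by 0.46. Fdft1, the squalene synthase, was lower in both knockdowns. It read 12.24 on each of the 3 SCR Cont arrays, 12.15, 12.04 and 12.15 in HSF1-KD Cont and 11.79, 11.72 and 11.79 in SSBP1-KD Cont. The differences were -0.13 (adjusted p = 0.0406) and -0.47 (adjusted p = 1.09e-06), and its second, dimmer probe set gave -0.15 and -0.59.

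**Figure D2:**
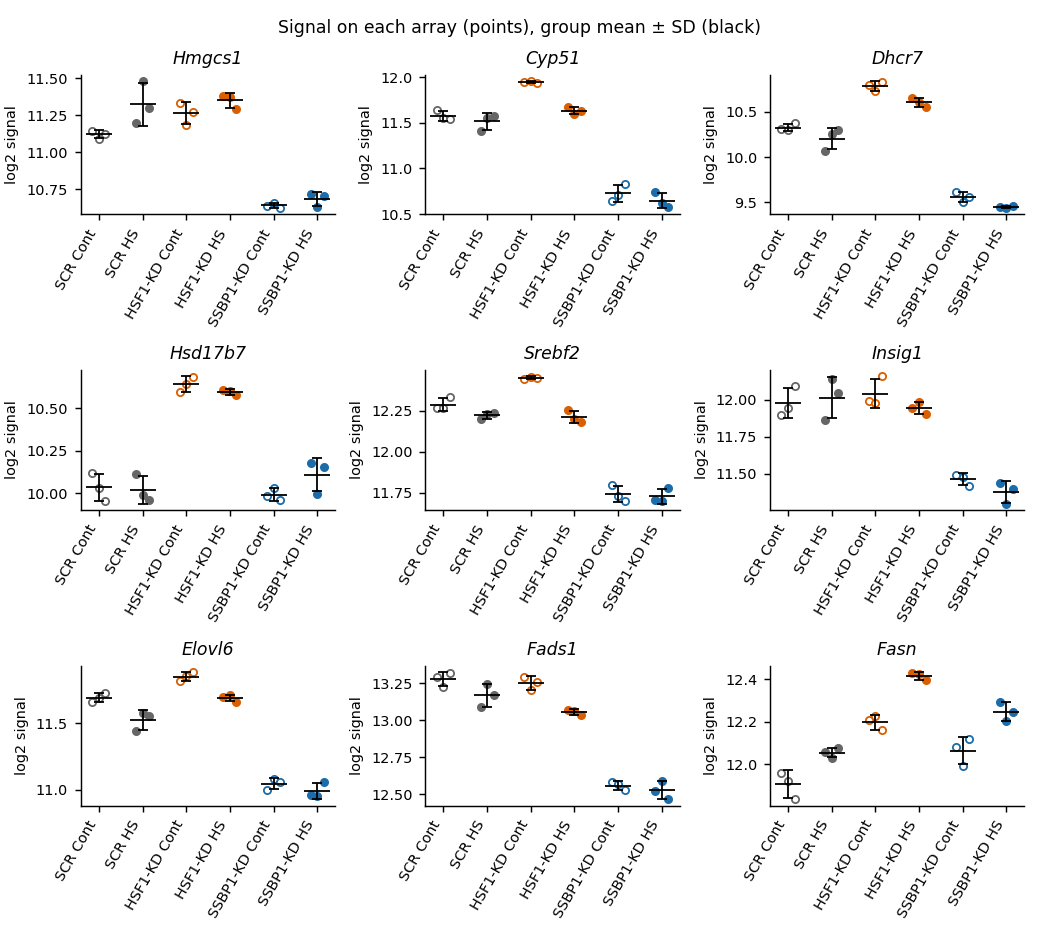
Log2 signal of 9 genes on each of the 18 arrays (points, open for Cont and filled for HS), with the group mean and SD in black. The signal axis differs between genes and does not start at 0. SSBP1-KD arrays lie lowest for Hmgcs1, Cyp51, Dhcr7, Srebf2, Insig1, Elovl6 and Fads1, while they overlap the SCR arrays for Hsd17b7 and lie above those of the same temperature for Fasn.

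Most of the 4 sterol regulators and transport genes moved the same way as most of the enzymes. All 4 were lower in SSBP1-KD Cont and 3 of 4 were higher in HSF1-KD Cont. Srebf2, the transcription factor most tied to cholesterol synthesis, read 12.27, 12.27 and 12.34 in SCR Cont, 12.44, 12.46 and 12.45 in HSF1-KD Cont and 11.80, 11.73 and 11.70 in SSBP1-KD Cont. All 3 groups were separate. It rose by 0.16 ± 0.04 (adjusted p = 0.0113) and fell by 0.55 ± 0.04 (1.46-fold lower, adjusted p = 3.79e-07). Srebf1, whose protein is more tied to fatty acid synthesis, rose by 0.30 in HSF1-KD and fell by 0.43 in SSBP1-KD. Insig1, which retains the sterol regulatory factors and is itself one of their targets, read 11.90, 11.95 and 12.09 in SCR Cont, 11.99, 11.98 and 12.16 in HSF1-KD Cont and 11.49, 11.48 and 11.42 in SSBP1-KD Cont. SCR and HSF1-KD arrays of Insig1 overlapped (difference 0.06, 95% interval -0.09 to 0.22, adjusted p = 0.628), and the SSBP1-KD arrays were below both, a fall of 0.51 (adjusted p = 0.000118). Stard4, a carrier that moves sterol between membranes, rose by 0.24 in HSF1-KD and fell by 0.24 in SSBP1-KD.

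Of the 11 fatty acid genes, 6 were higher in HSF1-KD Cont and none was lower, and in SSBP1-KD Cont 7 were lower and 2 were higher. The arm therefore divided in SSBP1-KD cells. The elongases and desaturases, 6 of the 11, were all lower, by 0.48 to 0.72 on the log2 scale, while Fasn and Me1 were higher. Grouping the arm in this way was done after the values were seen and carries no test. Fads1, the delta-5 desaturase of polyunsaturated fatty acids, read 13.29, 13.22 and 13.32 in SCR Cont, 13.29, 13.20 and 13.26 in HSF1-KD Cont and 12.58, 12.57 and 12.53 in SSBP1-KD Cont. SCR and HSF1-KD arrays overlapped (difference -0.03, 95% interval -0.13 to 0.08) and the SSBP1-KD arrays lay far below, a fall of 0.72 ± 0.05 (1.64-fold lower, adjusted p = 2.13e-07). Elovl6, which lengthens saturated chains, read 11.66, 11.69 and 11.73 in SCR Cont, 11.81, 11.86 and 11.88 in HSF1-KD Cont and 11.00, 11.08 and 11.06 in SSBP1-KD Cont. Its 3 groups did not overlap, with a rise of 0.16 (adjusted p = 0.0299) and a fall of 0.65 (adjusted p = 3.34e-07).

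Elovl5, an elongase of polyunsaturated chains, rose by 0.22 in HSF1-KD and fell by 0.48 in SSBP1-KD. Scd1, a stearoyl-CoA desaturase, rose by 0.14 and fell by 0.48, and its close relative Scd2 had a difference of 0.06 that did not pass and a fall of 0.60. How far the probes of these 2 related genes read each other was not tested. Fads2, the delta-6 desaturase, had a difference of 0.00 in HSF1-KD (95% interval -0.10 to 0.10) and fell by 0.60 in SSBP1-KD. On the synthesis side, Fasn read 11.96, 11.92 and 11.84 in SCR Cont, 12.21, 12.23 and 12.16 in HSF1-KD Cont and 12.08, 11.99 and 12.12 in SSBP1-KD Cont. Both knockdowns lay above SCR on every array, with rises of 0.29 (adjusted p = 0.000355) and 0.16 (adjusted p = 0.0177). Me1 rose by 0.27 in HSF1-KD and by 0.32 in SSBP1-KD, and its second probe set gave 0.22 and 0.27. Acaca rose by 0.18 in HSF1-KD and fell by 0.24 in SSBP1-KD, though a dimmer second probe set gave 0.05 and -0.23. Acly, the citrate lyase, had differences of -0.11 and 0.08, and Acss2, which activates acetate, of 0.21 and -0.07. None of the 4 passed the threshold.

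Alternative ways of processing changed some of these calls and no direction of a called value. Of the calls against SCR Cont, 12 of 22 in HSF1-KD and 21 of 27 in SSBP1-KD were made under all 28 alternatives run for each gene. Those lost under at least 1 alternative in HSF1-KD were Mvd, Idi1, Fdft1, Ebp, Srebf2, Stard4, Acaca, Elovl5, Elovl6 and Scd1, and in SSBP1-KD Pmvk, Idi1, Sc5d, Stard4, Acaca and Fasn. At a fold above 1.5 and an unadjusted p under 0.05, a rule added after seeing the data, 1 gene was higher in HSF1-KD Cont (0.582% of all symbols) and 6 were lower in SSBP1-KD Cont (2.33% of all symbols). With only the compared groups in the model the HSF1-KD count was 14 in place of 22. Without the first SSBP1-KD Cont array, 28 members passed in SSBP1-KD Cont, against 27 with it.

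The knockdowns were also compared with each other. The difference takes no SCR mean, though the SCR arrays enter the model's estimate of the spread. In SSBP1-KD Cont, 29 of the 31 genes were lower and 1 was higher than in HSF1-KD Cont, against 16.6% of all symbols lower and 12.9% higher. For 29 of the 31 genes all SSBP1-KD arrays lay below all HSF1-KD arrays, against 20.7% of all symbols. All 16 cholesterol enzymes were lower (median -0.65), as were all 4 regulators and transport genes (median -0.64). Of the 11 fatty acid genes 9 were lower (median -0.60 over the 11), and the median of all symbols was 0.02. Dhcr7 differed by -1.23 ± 0.06 (2.35-fold lower, adjusted p = 5.33e-09) and Cyp51 by -1.21 ± 0.06 (2.32-fold lower, adjusted p = 9.07e-09). Hsd17b7, which had not moved against SCR in SSBP1-KD cells, was 0.65 lower than in HSF1-KD cells. Acly was the gene that was higher, by 0.19 (adjusted p = 0.00428), and Me1 had a difference of 0.06 that did not pass. Of these 30 calls, 27 were made under all 28 alternatives, while those of Acly, Acss2 and Fasn were lost with only the compared groups in the model, and that of Fasn also without any of 3 single SCR arrays. By the fold rule (above 1.5, with an unadjusted p under 0.05), the count was 18 lower (2.07% of all symbols).

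After heat shock most contrasts between knockdown and SCR ran the same way. In HSF1-KD cells 7 of the 31 genes had a negative difference from SCR in HS, against 3 in Cont. Among the 4 regulators and transport genes, 2 were positive and 2 negative in HSF1-KD HS, where all 4 had been positive in Cont. In HSF1-KD HS, 17 of the 31 genes were higher and 1 (Fdft1) was lower than in SCR HS, against 13.1% of all symbols higher and 10.7% lower. In SSBP1-KD HS, 22 were lower and 2 (Fasn and Me1) were higher than in SCR HS, against 14.4% of all symbols lower and 14.3% higher. Lss read 10.47, 10.58 and 10.45 in SCR HS, 11.05, 11.03 and 10.96 in HSF1-KD HS and 10.40, 10.31 and 10.26 in SSBP1-KD HS. HSF1-KD arrays were again highest, a rise of 0.52 (adjusted p = 3.92e-06), and SSBP1-KD arrays lowest, a fall of 0.18 (adjusted p = 0.0167). Hsd17b7 rose by 0.58 in HSF1-KD HS, and its SSBP1-KD HS difference of 0.09 did not pass.

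Cyp51 read 11.41, 11.55 and 11.58 in SCR HS, 11.67, 11.60 and 11.63 in HSF1-KD HS and 10.74, 10.62 and 10.58 in SSBP1-KD HS. The SSBP1-KD arrays stayed far below, with a difference of -0.87 (adjusted p = 2.64e-07), whereas the HSF1-KD difference of 0.12 no longer passed (adjusted p = 0.21). Sqle, Mvd and Srebf2 likewise passed in HSF1-KD Cont and not in HSF1-KD HS, with differences of 0.06, 0.05 and -0.01 in HS. In SSBP1-KD HS, Hmgcs1 fell by 0.64, Dhcr7 by 0.76, Insig1 by 0.64, Srebf2 by 0.49, Fads1 by 0.64 and Elovl6 by 0.53. Pmvk, Ebp, Sc5d and Acaca passed in SSBP1-KD Cont but not in HS, where they had differences of -0.11, -0.14, -0.11 and -0.14. Between the heated knockdowns, 29 genes were lower and 1 (Acly) was higher in SSBP1-KD HS than in HSF1-KD HS, against 14.1% and 11.6% of all symbols. The cholesterol enzymes had a median of -0.53 there and the fatty acid genes of -0.49. Of the calls against SCR HS, 10 of 18 in HSF1-KD and 21 of 24 in SSBP1-KD were made under all 28 alternatives, as were 26 of the 30 between the heated knockdowns. At a fold above 1.5 and an unadjusted p under 0.05, no gene was higher in HSF1-KD HS than in SCR HS (0.732% of all symbols), 5 were lower in SSBP1-KD HS than in SCR HS (2.15%) and 12 were lower in SSBP1-KD HS than in HSF1-KD HS (1.44%).

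**Figure D3:**
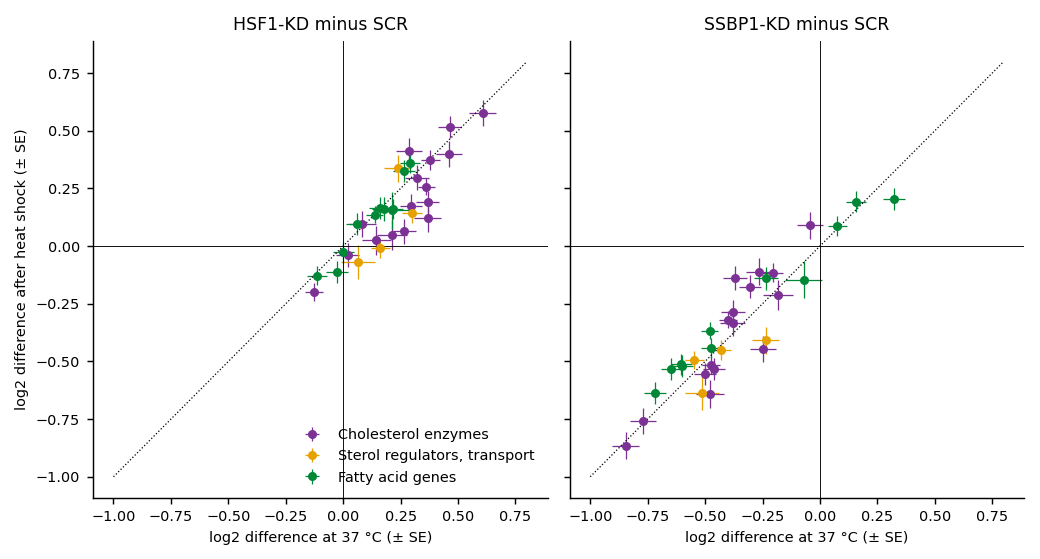
Log2 difference from SCR of each gene in Cont (horizontal) and HS (vertical), for HSF1-KD (left) and SSBP1-KD (right), with bars of 1 SE and a dotted line of equal values. The 2 axes use different arrays. Most HSF1-KD points lie above 0 on both axes and most SSBP1-KD points below 0 on both, with Fasn and Me1 at the upper right of the SSBP1-KD panel.

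Heat shock for 1 h moved the 31 genes by at most 0.42 on the log2 scale in any kind of cell. In SCR cells 3 genes were higher and 6 lower in HS than in Cont, against 7.63% of all symbols higher and 8.34% lower. In HSF1-KD cells 3 were higher and 13 lower, against 10.6% and 10.8%. In SSBP1-KD cells 2 were higher and none was lower, against 4.08% and 2.82%. The counts of higher genes lay near the shares of all symbols in all 3 kinds of cells, as did both counts in SSBP1-KD cells. Scaling changed the split in SCR cells, which became 0 higher and 6 lower with equal array medians and 1 higher and 5 lower with quantile normalization, and in SSBP1-KD cells, which became 1 higher and 3 lower with quantile normalization.

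Among the cholesterol enzymes, Sqle, Nsdhl, Ebp and Sc5d passed as lower with heat in both SCR and HSF1-KD cells. Ebp, the sterol isomerase, read 10.37, 10.41 and 10.44 in SCR Cont and 10.12, 10.11 and 10.11 in SCR HS, 10.75, 10.63 and 10.79 in HSF1-KD Cont and 10.43, 10.48 and 10.32 in HSF1-KD HS. Heated arrays lay below unheated ones in both, with falls of 0.29 (adjusted p = 0.00159) and 0.31 (adjusted p = 0.000834), while the difference in SSBP1-KD cells was -0.06 and did not pass. Sqle fell by 0.22 in SCR and by 0.42 in HSF1-KD, with signals of 11.87, 11.91 and 11.88 in HSF1-KD Cont and 11.51, 11.44 and 11.45 in HSF1-KD HS. Nsdhl fell by 0.16 in SCR and 0.27 in HSF1-KD, and Sc5d by 0.18 and 0.19. Cyp51, Msmo1 and Dhcr7 fell in HSF1-KD cells, by 0.31, 0.26 and 0.18, and their SCR differences of -0.06, -0.08 and -0.12 did not pass. Hmgcs1 was the 1 cholesterol enzyme that rose with heat in SCR cells (0.20, adjusted p = 0.0373), a call lost under 10 of the 28 alternatives, both rescalings among them.

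Srebf1 and Srebf2 fell with heat in HSF1-KD cells, by 0.25 and 0.24, and Stard4 rose there by 0.26. In the fatty acid arm, Fasn rose with heat in all 3 kinds of cells (0.15 in SCR, 0.22 in HSF1-KD and 0.18 in SSBP1-KD). Its SCR call was lost with equal array medians and with quantile normalization, as was its SSBP1-KD call with the second of these, and its HSF1-KD call was made under all 28 alternatives. Me1 rose in SCR and HSF1-KD cells (0.17 and 0.23), and Acaca in SSBP1-KD cells (0.23). The second, dimmer probe set of Me1 gave 0.14 in SCR, which did not pass, and 0.28 in HSF1-KD, which did. That of Acaca gave 0.11 in SSBP1-KD and did not pass. Elovl6 and Fads2 fell in SCR and HSF1-KD cells, by 0.17 and 0.17 in SCR and by 0.16 and 0.19 in HSF1-KD, and Elovl5 and Fads1 fell in HSF1-KD cells, by 0.17 and 0.20. Calls that rested on few arrays were common here. Of the heat calls, 2 of 9 in SCR (Nsdhl and Ebp), 10 of 16 in HSF1-KD and 0 of 2 in SSBP1-KD were made under all 28 alternatives. Those lost under at least 1 alternative were Hmgcs1, Sqle, Sc5d, Me1, Fasn, Elovl6 and Fads2 in SCR, Ebp, Sc5d, Dhcr7, Me1, Elovl5 and Elovl6 in HSF1-KD, and Acaca and Fasn in SSBP1-KD. With only the compared groups in the model, 3 passed in SCR and 0 in SSBP1-KD. The SCR count of 9 became 5 without the second SCR Cont array, 5 without the third, 4 without the first SCR HS array and 5 without the third, and the SSBP1-KD count of 2 became 1 without the second SSBP1-KD Cont array or the third SSBP1-KD HS array and 0 without the first SSBP1-KD HS array.

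**Figure D4:**
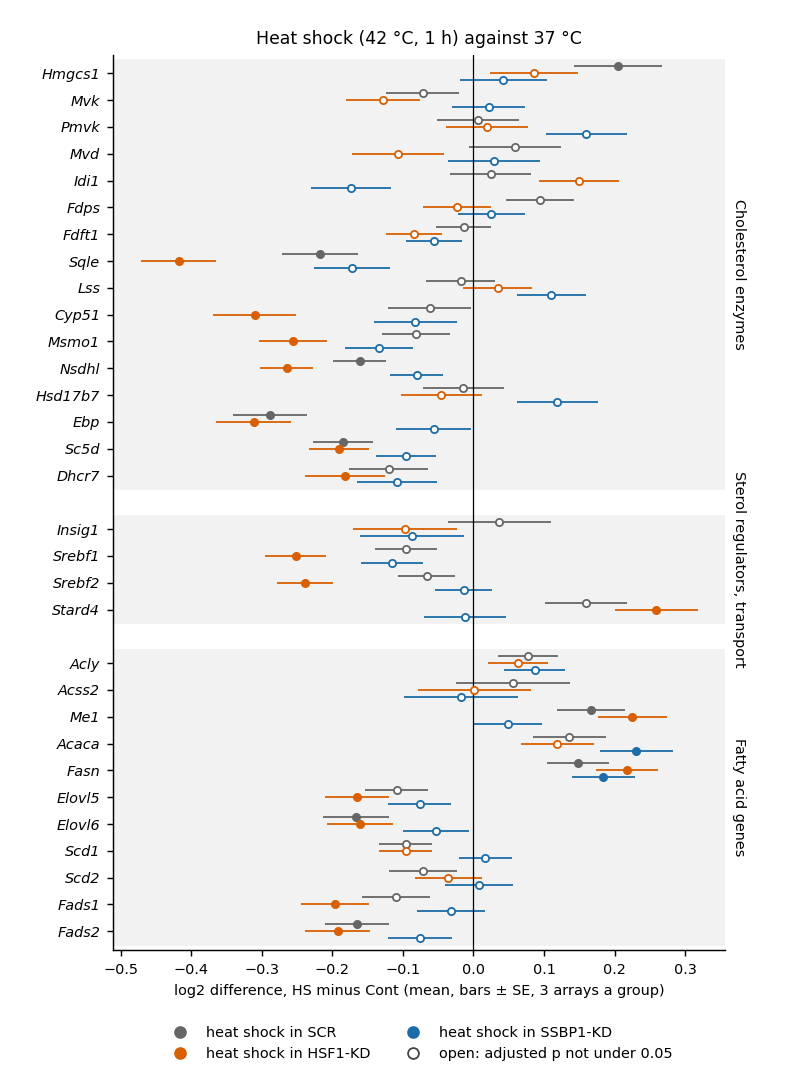
Log2 difference between HS and Cont of each gene in SCR (grey), HSF1-KD (orange) and SSBP1-KD (blue) cells, with bars of 1 SE and 3 arrays a group. Filled points passed an adjusted p of 0.05. The largest fall is that of Sqle in HSF1-KD cells (-0.42), and no SSBP1-KD point left of 0 passed.

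The size of the heat response was compared between kinds of cells directly. No gene of the 31 passed for HSF1-KD minus SCR, where 0.346% of all symbols passed in either direction, or for SSBP1-KD minus SCR, where 0.492% passed (limma). At an unadjusted p under 0.05 there were 5 and 3 such genes, and the methods' t-test also gave 0 and 0 after adjustment. For HSF1-KD minus SCR the 5 were Sqle, Cyp51, Msmo1, Srebf1 and Srebf2, with differences of -0.20, -0.25, -0.17, -0.16 and -0.17, and for SSBP1-KD minus SCR they were Idi1 (-0.20), Ebp (0.23) and Scd1 (0.11). A gene that passed in 1 kind of cell and not in another is therefore not shown to differ in its heat response.

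The arms were then set side by side across the 6 groups. The mean log2 difference from the SCR Cont mean was taken over the genes of an arm on each array. For the cholesterol enzymes it spanned -0.02 to 0.01 in SCR Cont, -0.09 to -0.01 in SCR HS, 0.27 to 0.29 in HSF1-KD Cont, 0.12 to 0.18 in HSF1-KD HS and -0.40 to -0.39 in unheated SSBP1-KD arrays, while heated SSBP1-KD arrays spanned -0.47 to -0.39. The arrays of the 3 kinds of cells did not overlap at either temperature, and HSF1-KD HS lay below HSF1-KD Cont. For the fatty acid arm as a whole the spans were -0.02 to 0.01, -0.05 to 0.03, 0.11 to 0.14, 0.09 to 0.11, -0.31 to -0.29 and -0.27 in the same order of groups. By these means the cholesterol enzymes were the lower arm in SSBP1-KD cells. By medians of the log2 differences from SCR the fatty acid genes were. The SSBP1-KD medians were -0.38 (cholesterol) and -0.48 (fatty acid) in Cont, and -0.33 and -0.37 in HS. In HSF1-KD they were 0.31 and 0.16 in Cont, and 0.18 and 0.16 in HS. In SSBP1-KD Cont the elongases and desaturases spanned -0.61 to -0.57 and the other 5 genes 0.05 to 0.06, and after heat shock these became -0.66 to -0.59 and 0.12 to 0.20. The same 2 groups of genes also lay apart in heated control cells, at -0.17 to -0.09 and at 0.09 to 0.16 in SCR HS. In HSF1-KD Cont they lay at 0.05 to 0.11 and at 0.16 to 0.17, and in HSF1-KD HS at -0.07 to -0.03 and at 0.28 to 0.30. These means and medians describe the listed genes and were not tested. RNA arrays give levels per gene on separate scales, so levels of different genes are not set against each other.

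**Figure D5:**
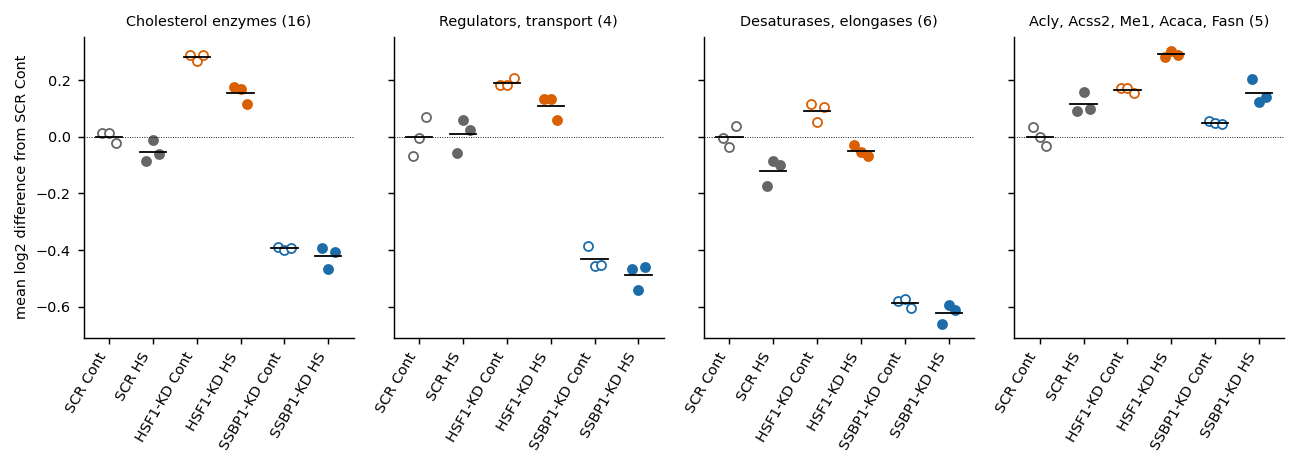
Mean log2 difference from the SCR Cont mean over the cholesterol enzymes, the regulators and transport genes, the desaturases and elongases, and the other 5 fatty acid genes, on each of the 18 arrays (points, open for Cont and filled for HS) with the group mean as a line. The first 3 panels place SSBP1-KD arrays far below the dotted 0 line, and the fourth places them above it.

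Other genes of the same pathways were read from whole lists. The shares of all symbols to set beside their counts are 16.5% lower and 14.6% higher in SSBP1-KD Cont, and 10.1% lower and 10.9% higher in HSF1-KD Cont. Of 8 measured genes that process the sterol regulatory factors or belong to the LXR pathway, which answers to oxidized sterols, 5 were lower and 1 was higher in SSBP1-KD Cont than in SCR Cont. Insig2, a second retention protein, fell by 0.68 (adjusted p = 3.43e-06), Mbtps1, the first protease that cuts the factors free, by 0.62 (adjusted p = 3.11e-06) and Erlin2 by 0.41, while Mylip, an LXR target whose product degrades the LDL receptor, rose by 0.25. In HSF1-KD Cont 3 of the 8 were higher (Erlin2 by 0.37, Mylip by 0.34 and Erlin1 by 0.22) and none was lower. A list named other sterol and isoprenoid enzymes had 8 measured genes, and the part each plays in sterol synthesis was not tested. In SSBP1-KD Cont 2 of them were lower, Tm7sf2, a sterol reductase, by 0.60 and Acat1 by 0.47. Ggps1 was higher there, by 0.21. Ggps1 was also the 1 that passed in HSF1-KD Cont, where it was higher by 0.17. The counts of this list lie near the shares of all symbols.

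Of 12 genes of cholesterol uptake, storage and efflux, 6 were lower and none higher in SSBP1-KD Cont. Vldlr, a lipoprotein receptor, fell by 0.68, Lipa, the lysosomal lipase that frees cholesterol from its esters, by 0.66, Lrp1 by 0.39 and the efflux pump Abca1 by 0.29. In HSF1-KD Cont 5 were higher and 1 lower. Vldlr was the lower one, by 0.54, and Nceh1, a cholesterol ester hydrolase, rose by 0.48, Stard3 by 0.35 and Npc1, which lets cholesterol out of lysosomes, by 0.21. Of 18 other genes of fatty acid synthesis and activation, 7 were lower and 3 higher in SSBP1-KD Cont, where Tecr, the last enzyme of the chain elongation cycle, fell by 0.52 and Hacd2, its dehydratase, by 0.41, and Hacd1 rose by 0.38 and Elovl3 by 0.31. In HSF1-KD Cont 7 of the 18 were higher and none lower, led by Hsd17b12, the reductase of the same cycle, at 0.47, Elovl4 at 0.38, Acsl5 at 0.35 and Elovl3 at 0.33. In heat-shocked SCR cells these 18 genes had 9 lower and none higher, against 8.34% of all symbols lower and 7.63% higher. Elovl4 was down by 0.37, Acsl5 by 0.33, Hacd3 by 0.28 and Elovl1 by 0.27. In heat-shocked HSF1-KD cells 8 were lower and 1 higher, against 10.8% and 10.6% of all symbols. In SSBP1-KD cells none passed, against 2.82% of all symbols lower and 4.08% higher.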

How the data were processed

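Signals came from 18 Affymetrix Mouse Gene 1.0 ST arrays, for which 200 ng of total RNA was labelled. The deposited values are log2 signals that the authors normalized with RMA in Partek 6.5, per the labels and processing notes. The build behind the array annotation is not given in the sources used here, and depth does not apply to arrays, whose number limits the precision. Of 35557 probe sets, 21789 had 1 gene symbol, 1621 had several and 12147 had none in the platform annotation. Genes are named by 1-symbol probe sets, the brightest per symbol. A model with 1 mean per group was fitted to all arrays with limma 3.58.1 (R 4.3.3, lmFit and eBayes, 12 residual degrees of freedom), tested on simulated data, and p-values were adjusted by Benjamini-Hochberg over all probe sets, with calls at an adjusted p under 0.05. There were 11 comparisons. Members and lists were chosen with earlier results of these data known. All members may be named, and of each pathway list up to 4 genes with the largest called differences per comparison. Replicate numbers did not pair the arrays. The methods' t-test was run per gene as an alternative. Motif counts used Python 3.11.15.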

Additional observations from a re-analysis of the deposited data

How the results depend on the processing

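The 31 genes gave 178 calls over the comparisons, of which 129 were made under all 28 alternatives that keep the adjusted p threshold. The alternatives gave 5572 values for the 199 pairs of gene and comparison that were called in at least 1 fit. Of these values, 5262 kept their side of the threshold, 230 lost the call and 80 gained it. Among values called in the main fit or in the alternative, 0 changed sign. The number of arrays and the 3 arrays a group limit what small differences can show.

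Genes called changed from 9 to 3 for heat in SCR cells with only the compared groups in the model and with the methods' t-test. For heat in SSBP1-KD cells the count of 2 became 4 with quantile normalization, with the probe sets above the median signal and with a trended and robust prior, 6 with array weights, 1 with the mean over all probe sets of a symbol, and 0 with only the compared groups or the methods' t-test. For HSF1-KD against SCR in Cont it went from 22 to 14 with only the compared groups. The cause was not tested. At a fold above 1.5 and an unadjusted p under 0.05, chosen after seeing the data, limma and the methods' t-test both gave 0 genes for heat in each kind of cell, 1 (Cont) and 0 (HS) for HSF1-KD against SCR, 6 (Cont) and 5 (HS) for SSBP1-KD against SCR, and 18 (Cont) and 12 (HS) between the 2 knockdowns.

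Quantile normalization moved the median of the fatty acid genes to -0.0185 for heat in SCR, -0.0843 for heat in HSF1-KD, 0.19 for HSF1-KD in Cont, -0.40 for SSBP1-KD in HS, -0.63 and -0.54 for SSBP1-KD against HSF1-KD in Cont and HS, and 0.0175 for the heat response of SSBP1-KD minus SCR. With it the cholesterol median minus the fatty acid median became -0.0368 for heat in SCR, where it had been 0.0315, -0.0105 for SSBP1-KD against HSF1-KD in HS, and 0.0047 for the heat response of SSBP1-KD minus SCR.

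Leaving out 1 array at a time, the count ranged from 4 to 10 for heat in SCR and from 0 to 3 for heat in SSBP1-KD. The median of the fatty acid genes ranged from -0.078 to -0.0097 for heat in HSF1-KD, -0.0265 to 0.0154 for heat in SSBP1-KD, -0.4933 to -0.4309 for SSBP1-KD in Cont, 0.1192 to 0.1597 for HSF1-KD in HS, -0.6257 to -0.5701 and -0.5022 to -0.458 for SSBP1-KD against HSF1-KD in Cont and HS, and 0.0381 to 0.0909 for the heat response of SSBP1-KD minus SCR. That of the cholesterol enzymes ranged from 0.2961 to 0.3552 for HSF1-KD in Cont. The cholesterol minus the fatty acid median ranged from -0.0001 to 0.0497 for heat in SCR, -0.1293 to -0.0214 for heat in HSF1-KD, -0.0774 to -0.0013 for heat in SSBP1-KD, 0.1194 to 0.199 for HSF1-KD and 0.0507 to 0.1161 for SSBP1-KD in Cont, 0.0126 to 0.0826 for SSBP1-KD in HS, -0.0949 to -0.0163 for SSBP1-KD against HSF1-KD in HS, and -0.0586 to 0.0058 for the heat response of SSBP1-KD minus SCR.

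Replicate numbers are shared by the groups, but arrays of the same number did not deviate together: 6 of 45 pairs correlated above 0.1 (range -0.28 to 0.17), and 6 of 18 arrays were closest to their own number. With the replicate number as a block, the counts were 8, 16 and 2 for heat in SCR, HSF1-KD and SSBP1-KD cells, 22 (Cont) and 16 (HS) for HSF1-KD against SCR, 28 (Cont) and 24 (HS) for SSBP1-KD against SCR, 29 and 30 for SSBP1-KD against HSF1-KD in Cont and HS, and 0 and 0 for the differences in heat response.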

Other observations

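Genes that store and burn fatty acids were read from 2 further lists. Of 10 genes of glycerolipid synthesis and breakdown, 7 were lower and none higher in SSBP1-KD Cont than in SCR Cont (limma, adjusted p under 0.05), where 16.5% of all symbols were lower and 14.6% higher. Gpam, the acyltransferase that starts glycerolipid synthesis, fell by 0.50 on the log2 scale, the lipases Lipe and Pnpla2 both by 0.46 and the acyltransferase Agpat2 by 0.36. In HSF1-KD Cont 2 of the 10 were lower, Agpat1 by 0.44 and Pnpla2 by 0.29, and Agpat3 was higher by 0.21, against 10.1% of all symbols lower and 10.9% higher. After heat shock, 5 were lower and 1 was higher in SSBP1-KD HS than in SCR HS (14.4% and 14.3% of all symbols), with Pnpla2 down by 0.43, Lipe by 0.42, Dgat1 by 0.27 and Lpin1 by 0.27.

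Of 11 genes of fatty acid oxidation, 6 were lower and 1 was higher in SSBP1-KD Cont, the latter a smaller share than the 14.6% of all symbols. The acyl-CoA dehydrogenase gene Acadm fell by 0.41, Cpt1c by 0.29 and Acads by 0.24, and Hadha, a subunit of the mitochondrial trifunctional protein, rose by 0.30. In HSF1-KD Cont 4 were lower and 1 was higher. Cpt1a, which lets long-chain fatty acids into mitochondria, fell by 0.66 (adjusted p = 3.45e-06), Acadm by 0.26 and Acadvl by 0.22, and Cpt1c rose by 0.49. Heat shock raised Lpin2, a phosphatidate phosphatase, by 0.32 in SCR, 0.31 in HSF1-KD and 0.32 in SSBP1-KD cells, and lowered Cpt1c by 0.25, 0.35 and 0.27.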
